A study of Homo sapiens with 12 samples.

Results

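In all, 10 circadian clock genes were followed across 2 human medulloblastoma cell lines with and without fluid shear stress (FSS): PER1, PER2, PER3, CRY1, CRY2, NR1D1, NR1D2, DBP, BHLHE40 and CLOCK. They were taken by gene symbol from the raw count table, where all 10 of the 10 listed genes had a row among 63241 genes, and all 10 passed the filter on low counts that left 19631 genes to test. The 4 groups were ONS76 under FSS, static ONS76, DAOY under FSS and static DAOY, with 3 libraries each and 12 in all. Both lines carry the genotype label WT and no drug separates the groups, but that label does not mean that the lines share their alleles. All cells were kept in 6-well plates in artificial cerebrospinal fluid (aCSF), and RNA was taken at 18 h. FSS plates were turned on an orbital shaker at 100 rpm and static plates were not, so the force of the moving fluid and anything else that shaking does to a plate cannot be told apart. The libraries of a group are described as biological replicates, but how their cultures were kept separate is not stated. The p-values therefore speak only of the spread among libraries, which may be technical. Each line is a single established line, and all libraries share 1 time point, so whether a changed level is a shifted phase or a changed rhythm was not tested. In these bulk libraries, fewer cells that express a gene and less of its RNA per cell cannot be told apart.

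The circadian clock is a transcriptional feedback loop found in nearly every cell. CLOCK, or its paralog NPAS2, pairs with BMAL1 and binds E-box elements to switch on the PER, CRY, NR1D1, NR1D2, DBP and BHLHE40 genes. PER and CRY proteins return to the nucleus and repress that pair, NR1D1 and NR1D2 (REV-ERB alpha and beta) repress BMAL1, BHLHE40 competes at E-boxes, and DBP acts through D-box elements that NFIL3 represses. Cultured cells keep such rhythms one by one, and a medium change or a hormone pulse can bring a dish into step. PER1 and PER2 also respond acutely to glucocorticoid and cyclic AMP signals.

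The upstream sequences of 4 of the genes, which differ in their response below, are shown with short matches to motifs of the loop. Whether these matches act, or bear on the responses, was not tested. The stretches are RefSeq sequences on GRCh38.p14, read 5′ to 3′ on the gene's strand and ending at or before the transcription start. Bases inside an exon of the gene were left out (which in PER1 takes out its D-box). In PER1 (chr17:8152436-8152654, minus strand, inside the annotated gene span) the capitals mark the E-box CACGTG and the half-site AGGTCA on the opposite strand. AGGTCA is a part of the elements for REV-ERB and ROR proteins, and the flanking bases of such an element were not searched. In PER2 (chr2:238288611-238288860, minus strand, also inside the annotated gene span) they mark the E-box variant CACGTT. In PER3 (chr1:7784041-7784290, plus strand) they mark the D-box TTATGTAA. In NR1D2 (chr3:23945871-23946120, plus strand, the second of its RefSeq windows, inside the annotated gene span) they mark a D-box on the opposite strand and a pair of E-boxes.
PER1: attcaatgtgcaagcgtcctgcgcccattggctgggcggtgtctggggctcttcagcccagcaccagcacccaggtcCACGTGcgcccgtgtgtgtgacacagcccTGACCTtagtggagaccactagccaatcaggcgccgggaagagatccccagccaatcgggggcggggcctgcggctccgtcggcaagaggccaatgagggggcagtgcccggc
PER2: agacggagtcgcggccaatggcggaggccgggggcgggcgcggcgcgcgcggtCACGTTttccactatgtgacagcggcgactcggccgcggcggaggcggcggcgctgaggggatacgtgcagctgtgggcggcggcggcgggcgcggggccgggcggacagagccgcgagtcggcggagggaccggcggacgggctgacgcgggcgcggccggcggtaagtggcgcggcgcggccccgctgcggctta
PER3: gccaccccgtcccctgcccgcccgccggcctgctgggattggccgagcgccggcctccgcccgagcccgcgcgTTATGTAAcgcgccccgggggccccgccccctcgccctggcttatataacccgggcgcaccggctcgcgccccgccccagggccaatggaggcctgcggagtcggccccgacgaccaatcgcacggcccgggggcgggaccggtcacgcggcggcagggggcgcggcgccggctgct
NR1D2: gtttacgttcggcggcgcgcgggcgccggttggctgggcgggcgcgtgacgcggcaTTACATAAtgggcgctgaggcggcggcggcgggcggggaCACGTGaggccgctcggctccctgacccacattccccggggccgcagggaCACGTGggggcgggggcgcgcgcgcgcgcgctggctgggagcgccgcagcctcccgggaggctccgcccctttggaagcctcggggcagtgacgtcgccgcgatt

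Windows of 250 bases before to 50 bases after each start were searched on both strands, and all 10 genes had at least 1 window. CACGTG was found in 3 of the 10 genes (PER1, NR1D2 and BHLHE40) and in 7.26% of all 35116 RefSeq windows. CACGTT was found in 5 (PER2, CRY1, CRY2, NR1D1 and CLOCK) and in 5.34% of windows. The D-box, searched as TTATGTAA or TTATGCAA, was found in 3 (PER1, PER3 and NR1D2) and in 1.71% of windows, and AGGTCA in 2 (PER1 and CRY2) and in 13.8%. AGGTCA and the other motifs did not share bases in the sequences printed. A gene with several windows has more chances to hold a motif than a single window, and a match is a description of the sequence, not of binding.

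Library totals ran from 38.1 to 49.3 M counts, and the 10 genes had from 45 counts (PER3 in a static ONS76 library) to 5475 counts (NR1D2 in static DAOY) per library. Levels below are CPM, counts per 1e6 after TMM scaling, unless TPM (transcripts per 1e6, which also divides by gene length) is named. Of the granule-lineage markers used to check the lines, ZIC2 was found in all libraries, at 16.4 to 41.4 CPM, whereas NEUROD1 was at 0 throughout and ATOH1 and BARHL1 did not pass 0.09 and 0.25 CPM. ZIC1 was at 0.56 to 1.17 CPM in ONS76 libraries and 24.1 to 28.9 CPM in DAOY libraries, and PAX6 at 0.24 to 0.89 and 16.0 to 23.8 CPM. OTX2 and EOMES were at 0 in ONS76 and at 1.68 to 3.38 and 1.25 to 2.55 CPM in DAOY. A 0 in this table need not mean a silent gene. Static ONS76 libraries 1 and 2 stood apart in the heart myosins MYH6 (34.6 and 13.8 CPM) and MYH7 (21.4 and 7.36 CPM), which did not pass 0.34 CPM in any other library, while the heart genes TNNT2 and ACTC1 were at 0 in all 12. The ONS76 calls are therefore given also without those libraries where that changes them, which leaves 1 static ONS76 library that is assumed to vary like the other groups. Of 3 endothelial markers, PECAM1 and CDH5 rose under FSS in both lines and VWF was called in neither. VWF lay the other way in ONS76, with 1.58, 2.04 and 1.85 CPM under FSS and 2.23, 2.52 and 3.01 CPM static, and the groups did not overlap. PECAM1 had 27.2, 24.7 and 23.3 CPM in ONS76 under FSS and 14.1, 15.2 and 14.8 CPM in static ONS76, and its part in the clock gene results was not tested.

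The clock genes did not move as a block under FSS. In ONS76, 3 of the 10 rose (PER1, PER2 and DBP) and 2 fell (NR1D2 and BHLHE40). Over all tested genes in that comparison, 14.1% rose, 13.9% fell and 28.0% passed in either direction. In DAOY, none of the 10 rose and 4 fell (PER3, CRY2, NR1D2 and DBP), where 19.5% of all tested genes rose, 20.1% fell and 39.7% passed in either direction. As 4 of 10 lies close to that last share, the number called in DAOY does not set the clock genes apart. A call here is an adjusted p under 0.05 by edgeR's quasi-likelihood test with Benjamini-Hochberg adjustment over all tested genes. By that same test without adjustment, 2 more genes, PER1 and NR1D1, were higher in DAOY at p under 0.05, and DESeq2 also called 0 higher. With upper-quartile scaling 2 rose (PER1 and NR1D1) and 4 fell. That scaling also moved the rest, with 4307 of 19631 tested genes higher, 3559 lower and a median log2 fold change of 0.03. The count of 3 that rose in ONS76 was 1 without ONS76 FSS library 1 or 2 or without static library 1 or 2. In those runs 2247 to 2483 of at least 20207 tested genes rose, against 2770 of 19631 with all libraries. Without both static libraries 1 and 2, which leaves 1 static ONS76 library, the log2 fold changes were 0.28 for PER1, 0.23 for PER2 and 0.13 for DBP. The median log2 fold change of the 10 genes was 0.11 in ONS76, against 0.00 over all tested genes, and -0.12 in DAOY, against 0.00 over all tested genes.

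Across the lines, 1 of the 10 genes was called in the same direction in both (NR1D2), 1 in opposite directions (DBP), 3 in ONS76 alone, 2 in DAOY alone and 3 in neither (CRY1, NR1D1 and CLOCK). Over all tested genes those shares were 14.9% in the same direction, 2.46% in opposite directions, 10.7% in ONS76 alone, 22.3% in DAOY alone and 49.6% in neither. A test of the difference itself, the response in ONS76 minus the response in DAOY, was called for 5 genes, with PER2, PER3, CRY2 and DBP more positive in ONS76 and BHLHE40 more negative. With all 12 libraries, 10.7% of all tested genes were called more positive, 8.34% more negative and 19.1% either way. Without DAOY FSS library 1 or DAOY static library 1, the count of 4 was 2, where 2044 of 20123 and 1946 of 20149 tested genes were more positive. Without static ONS76 libraries 1 and 2, the 4 differences were 0.40 for PER2, 1.22 for PER3, 0.46 for CRY2 and 0.55 for DBP. Each library's level of each gene is in the plot of the 10 genes by group.

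**Figure D1:**
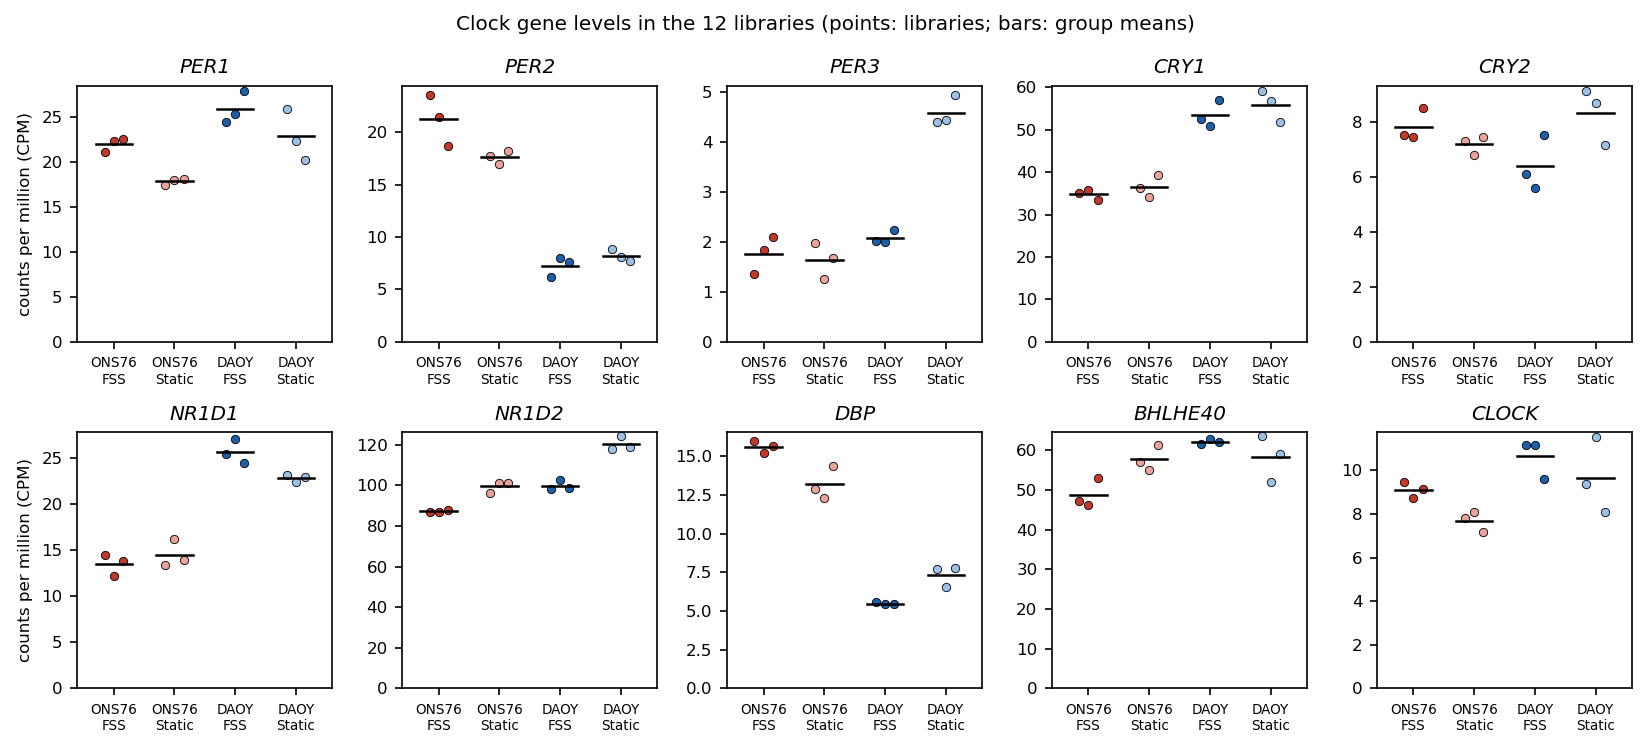
Counts per 1e6 (CPM, linear axes from 0) of the 10 clock genes in the 12 libraries; points are libraries and bars are group means of 3. PER3 sits at 2.00 to 2.23 CPM in DAOY under FSS and 4.39 to 4.93 CPM in static DAOY, while DBP is higher under FSS than static in ONS76 and lower in DAOY.

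The PER genes, whose proteins form the repressing arm, differed from each other. PER1 had 21.1, 22.3 and 22.6 CPM in ONS76 under FSS and 17.5, 18.0 and 18.2 CPM in static ONS76. The groups did not overlap, and the log2 fold change was 0.30 (SE 0.08, adjusted p = 0.00319, edgeR). In DAOY, PER1 had 24.5, 25.4 and 27.9 CPM under FSS and 25.9, 22.4 and 20.3 CPM static. There the high static library 1 lay among the FSS libraries, and the log2 fold change of 0.18 (SE 0.07) fell just short of the threshold (adjusted p = 0.0508, edgeR). It passed without DAOY static library 1 (0.28, adjusted p = 0.00403) and without DAOY FSS library 1 (adjusted p = 0.0469, edgeR), and was 0.10 (adjusted p = 0.349, edgeR) without DAOY static library 3. The PER1 responses of the lines were not shown to differ (difference 0.12 on the log2 scale, 95% interval -0.10 to 0.34). Without static ONS76 libraries 1 and 2, the PER1 rise in ONS76 was 0.28 and its adjusted p 0.0914 (edgeR).

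PER2, the partner of PER1 in the same complex, moved less evenly. It had 23.6, 21.5 and 18.7 CPM in ONS76 under FSS and 17.7, 17.0 and 18.2 CPM in static ONS76. All 3 FSS libraries lay above the static ones, though FSS library 3 did so by a small margin, and the log2 fold change was 0.27 (SE 0.09, adjusted p = 0.0263, edgeR). In DAOY the gene stood at 6.15, 8.02 and 7.58 CPM under FSS and 8.83, 8.07 and 7.68 CPM static, with overlapping groups and a log2 fold change of -0.17 (SE 0.10, adjusted p = 0.191, edgeR). The difference of the responses was 0.44 (SE 0.14, adjusted p = 0.0211, edgeR). The ONS76 call was lost with limma on log2 TPM (adjusted p 0.108 to 0.126), without ONS76 FSS library 1 (0.19, adjusted p = 0.175), FSS library 2, or static library 1 or 2, and the difference was lost without ONS76 FSS library 1, DAOY FSS library 1 or DAOY static library 1 (adjusted p 0.0629 to 0.0812, edgeR) and with limma (adjusted p 0.0782 and 0.0963). Without both static ONS76 libraries 1 and 2, the adjusted p was 0.28 for the ONS76 response and 0.121 for the difference (edgeR).

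PER3, a PER paralog that is less central to the mouse clock, gave the largest response of the 10 genes. It had 2.02, 2.00 and 2.23 CPM in DAOY under FSS and 4.39, 4.42 and 4.93 CPM in static DAOY. No library of either group came near the other group, and the log2 fold change was -1.14 (SE 0.18, adjusted p = 4.92e-06, edgeR). In ONS76 the libraries had 1.35, 1.84 and 2.09 CPM under FSS and 1.98, 1.25 and 1.67 CPM static, and they overlapped fully. The ONS76 log2 fold change of 0.10 had a 95% interval of -0.33 to 0.52, since those libraries held 45 to 87 counts of the gene. The responses differed by 1.23 (SE 0.27, adjusted p = 0.00126, edgeR), and that call held in every alternative that kept the gene.

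The CRY genes encode the partners of the PER proteins in the repressor. CRY1 had 35.1, 35.9 and 33.5 CPM in ONS76 under FSS and 36.2, 34.0 and 39.3 CPM in static ONS76. In DAOY it had 52.6, 50.8 and 57.0 CPM under FSS and 59.0, 56.8 and 51.8 CPM static. Groups overlapped in both lines, with 95% intervals of the log2 fold change of -0.19 to 0.05 in ONS76 and -0.18 to 0.05 in DAOY. CRY2 fell in DAOY, with 6.10, 5.58 and 7.54 CPM under FSS and 9.12, 8.66 and 7.14 CPM static. One library of each group crossed into the other, and the log2 fold change was -0.38 (SE 0.12, adjusted p = 0.00923, edgeR), which was lost without DAOY FSS library 2 (adjusted p = 0.0696) or static library 1 (adjusted p = 0.067). In ONS76, CRY2 had 7.52, 7.43 and 8.50 CPM under FSS and 7.31, 6.78 and 7.45 CPM static, with a log2 fold change of 0.12 (SE 0.12, adjusted p = 0.494, edgeR). The responses differed by 0.50 (SE 0.17, adjusted p = 0.0307, edgeR). That call was lost with limma on log2 TPM at a pseudocount of 0.1 (adjusted p = 0.06), and without ONS76 FSS library 3, ONS76 static library 2, DAOY FSS library 1 or 2, or DAOY static library 1 or 2, at adjusted p 0.063 to 0.0932 (edgeR), and it was 0.157 without static ONS76 libraries 1 and 2.

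Of the nuclear receptors that repress BMAL1, NR1D2 fell in both lines and NR1D1 passed the test in neither. NR1D2 had 86.7, 86.7 and 88.1 CPM in ONS76 under FSS and 96.1, 101 and 101 CPM in static ONS76. In DAOY it had 98.0, 103 and 98.7 CPM under FSS and 118, 124 and 119 CPM static. All FSS libraries of each line lay below its static libraries, by a log2 fold change of -0.19 (SE 0.04, adjusted p = 0.000456) in ONS76 and -0.27 (SE 0.04, adjusted p = 1.35e-06, edgeR) in DAOY. Both calls held in every alternative run, and the difference of 0.08 had a 95% interval of -0.04 to 0.19. NR1D1 had 14.4, 12.2 and 13.8 CPM in ONS76 under FSS and 13.4, 16.2 and 13.9 CPM static, with a log2 fold change of -0.10 (SE 0.08, adjusted p = 0.384, edgeR). In DAOY it had 25.4, 27.0 and 24.4 CPM under FSS and 23.2, 22.4 and 22.9 CPM static. Those groups did not overlap, but the log2 fold change of 0.17 (SE 0.07) had an adjusted p of 0.0766 (edgeR), and 0.0373 with upper-quartile scaling, 0.0383 with a stricter filter and 0.0379 with DAOY fitted alone.

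DBP, the D-box activator whose level is commonly read as an output of the loop, went opposite ways. It had 16.0, 15.2 and 15.7 CPM in ONS76 under FSS and 12.9, 12.3 and 14.4 CPM in static ONS76, a log2 fold change of 0.25 (SE 0.09, adjusted p = 0.0384, edgeR). In DAOY it had 5.55, 5.44 and 5.44 CPM under FSS and 7.72, 6.53 and 7.75 CPM static, a log2 fold change of -0.42 (SE 0.10, adjusted p = 0.00103, edgeR). Groups were apart in both lines. The difference of 0.67 (SE 0.13, adjusted p = 0.000434, edgeR) and the fall in DAOY held in every alternative run. The rise in ONS76 was lost with no filter (adjusted p = 0.0699), with limma on log2 TPM (0.0526 and 0.0652), without any 1 of the 3 ONS76 FSS libraries or static library 1 or 2, and without both of those static libraries, where it was 0.13 (adjusted p = 0.59, edgeR).

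BHLHE40 (DEC1), an E-box repressor that also answers to hypoxia and growth signals, fell in ONS76, with 47.2, 46.2 and 53.1 CPM under FSS and 57.0, 55.2 and 61.5 CPM static. The groups were apart at a log2 fold change of -0.25 (SE 0.06, adjusted p = 0.00197, edgeR), and the call held in every alternative run. In DAOY it had 61.6, 62.8 and 62.1 CPM under FSS and 63.6, 52.1 and 59.1 CPM static, with a log2 fold change of 0.09 (SE 0.06, adjusted p = 0.22, edgeR), which was 0.16 (adjusted p = 0.0429) without DAOY static library 1 and 0.02 (adjusted p = 0.873, edgeR) without static library 2. The responses differed by -0.34 (SE 0.08, adjusted p = 0.00337, edgeR). CLOCK, the activator, had 9.47, 8.75 and 9.13 CPM in ONS76 under FSS and 7.83, 8.08 and 7.17 CPM in static ONS76, which did not overlap, at a log2 fold change of 0.24 (SE 0.11) and an adjusted p of 0.107 (edgeR). In DAOY, CLOCK had 11.2, 11.2 and 9.63 CPM under FSS and 9.39, 11.5 and 8.11 CPM static, and the groups overlapped (log2 fold change 0.14, adjusted p = 0.319, edgeR). Without DAOY static library 2 it was 0.28 (adjusted p = 0.0447, edgeR), and without static library 3 it was 0.03 (adjusted p = 0.883, edgeR).

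In ONS76 the FSS and static libraries did not overlap for 6 of the 10 genes (PER1, PER2, DBP and CLOCK higher, NR1D2 and BHLHE40 lower), where 38.7% of all tested genes did not (19.5% higher and 19.1% lower). In DAOY they did not overlap for 4 (NR1D1 higher, PER3, NR1D2 and DBP lower), where 49.9% of all tested genes did not (24.8% higher and 25.1% lower). The 4 of 10 in DAOY did not exceed that share. Several of these genes share genomic space with a gene on the opposite strand, and although the kit was directional, whether counting used the strand is not given in the sources used here. THRA, which overlaps NR1D1 by 1081 bases, rose in ONS76 by 0.38 (SE 0.05) on the log2 scale. In DAOY, THRA had 36.8, 36.7 and 40.0 CPM under FSS and 34.6, 35.1 and 34.3 CPM static, groups that were apart in the direction of NR1D1 there, at a log2 fold change of 0.13 (SE 0.05, adjusted p = 0.0678, edgeR). NKIRAS1, which overlaps NR1D2 by 1332 bases, rose in DAOY by 0.44 (SE 0.08), against the direction of NR1D2 there. SPHK2 (beside DBP), TMEM165 (beside CLOCK) and BHLHE40-AS1 were called under FSS in neither line, and UTS2 (beside PER3) did not pass 0.42 CPM.

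A further 13 core clock genes were also tested. In ONS76, 3 rose and 2 fell, where 28.0% of all tested genes passed, and in DAOY 4 rose and 5 fell, where 39.7% passed. Without static ONS76 libraries 1 and 2, 2 rose and 2 fell in ONS76, where 1558 of 21248 tested genes rose and 1818 fell. BMAL1, the partner of CLOCK, rose in both lines. It had 21.3, 20.8 and 20.1 CPM in ONS76 under FSS and 17.0, 16.7 and 18.1 CPM in static ONS76, and 49.6, 50.5 and 49.9 CPM in DAOY under FSS and 35.4, 35.5 and 35.4 CPM in static DAOY. The log2 fold changes were 0.26 (SE 0.06, adjusted p = 0.000885) in ONS76 and 0.50 (SE 0.05, adjusted p = 2.47e-09, edgeR) in DAOY, with a difference of -0.23 (adjusted p = 0.0357, edgeR). Without static ONS76 libraries 1 and 2, BMAL1 was not called in ONS76 (0.20, adjusted p = 0.121), nor was the difference (-0.29, adjusted p = 0.0531, edgeR), whereas NFIL3, TEF and BMAL2 kept their ONS76 calls. NPAS2, the CLOCK paralog, rose in DAOY by 0.58 (SE 0.06) and was at 0.12 (SE 0.05, adjusted p = 0.0736) in ONS76. NFIL3, which represses at D-boxes, rose in both lines, by 0.28 (SE 0.05) in ONS76 and 0.26 (SE 0.05) in DAOY.

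TEF and HLF, the D-box activators related to DBP, fell where they passed the test. TEF was lower under FSS in both lines, by log2 fold changes of -0.45 (SE 0.12) in ONS76, where the groups overlapped, and -0.73 (SE 0.10) in DAOY. HLF was at -1.11 (SE 0.23, adjusted p = 0.000174, edgeR) in DAOY, with 1.26, 1.90 and 2.09 CPM under FSS and 3.68, 3.42 and 4.24 CPM static, and did not pass 0.61 CPM in any ONS76 library. BMAL2 fell in both lines (-0.55 in ONS76 and -0.38 in DAOY). BHLHE41 (DEC2) fell in DAOY (-0.34) and was at -0.39 in ONS76 with an adjusted p of 0.0835 (edgeR). TIMELESS, which in mammals works mainly at the replication fork, was at -0.56 (SE 0.04) in DAOY and -0.11 (SE 0.04, adjusted p = 0.0587) in ONS76. The plot of responses sets all 18 genes side by side.

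**Figure D2:**
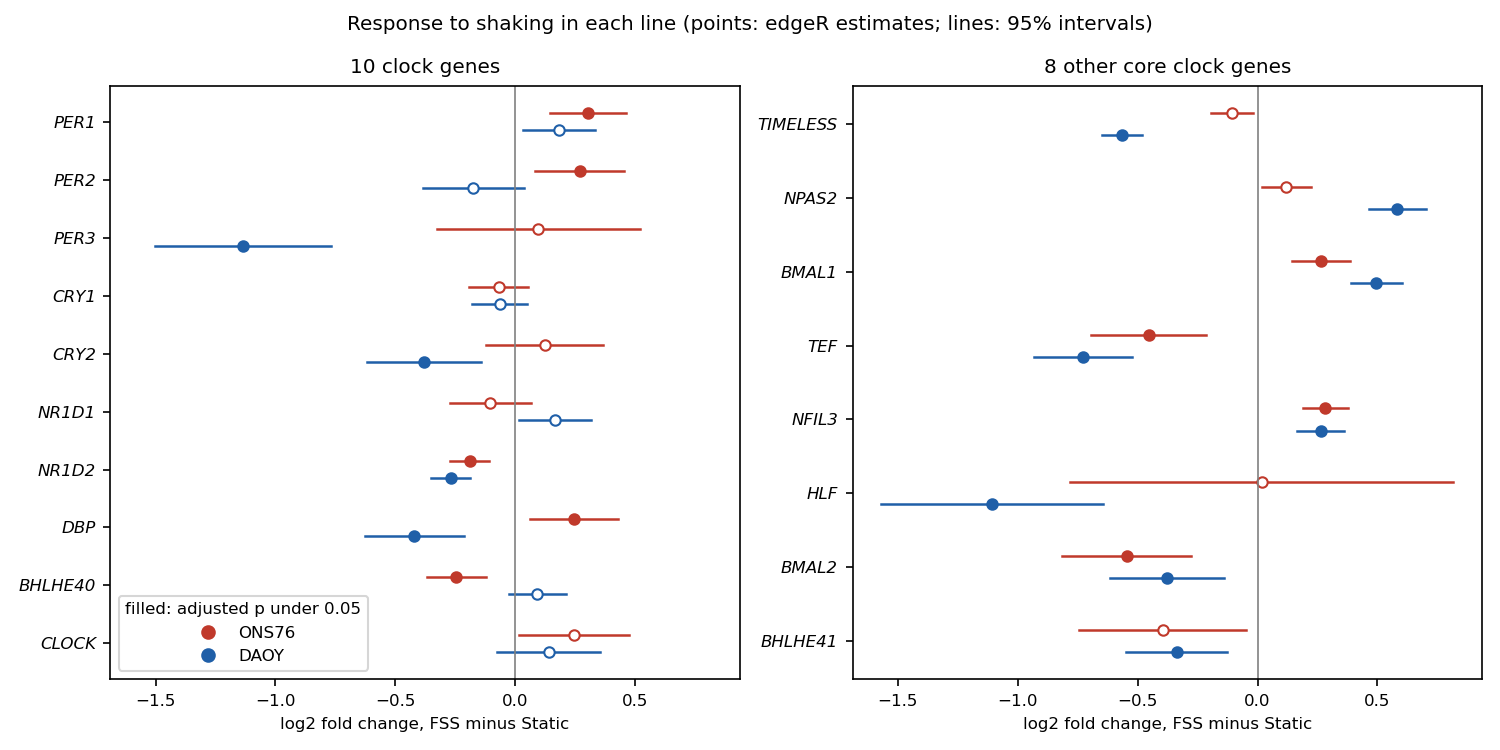
Log2 fold change, FSS minus Static, in ONS76 (red, upper of each pair) and DAOY (blue, lower) for the 10 clock genes and 8 other core clock genes; points are edgeR estimates, lines are 95% intervals, and filled points have an adjusted p under 0.05. BMAL1 and NFIL3 lie right of 0 in both lines, NR1D2, TEF and BMAL2 lie left of 0 in both, and PER3 and HLF reach -1.14 and -1.11 in DAOY.

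Within a library, NR1D1 and DBP can be set against BMAL1, since they sit on opposite sides of the loop. The log2 ratio of NR1D1 to BMAL1 (CPM + 0.5) was -0.55, -0.74 and -0.53 in ONS76 under FSS and -0.33, -0.04 and -0.37 in static ONS76. In DAOY it was -0.95, -0.89 and -1.01 under FSS and -0.60, -0.65 and -0.62 static. The ratio was lower under FSS, by -0.36 in ONS76 and -0.33 in DAOY, with the groups apart in each line (two-sided exact permutation p = 0.1 in each, the smallest that 3 against 3 libraries can give). Without static ONS76 libraries 1 and 2, the ONS76 value was -0.24. Both ratios share BMAL1 as divisor, which was higher under FSS in both lines. In DAOY, NR1D1 itself was higher under FSS (mean 25.6 CPM against 22.8 CPM static). Its lower ratio there reflects BMAL1, at 49.6 to 50.5 CPM under FSS and 35.4 to 35.5 CPM static, and not a fall of NR1D1. The ratio of DBP to BMAL1 was -0.40, -0.44 and -0.35 in ONS76 under FSS and -0.38, -0.43 and -0.32 in static ONS76, a difference of -0.02 (exact permutation p = 0.7). In DAOY it was -3.05, -3.10 and -3.08 under FSS and -2.13, -2.36 and -2.12 static, a difference of -0.88 with the groups apart (exact permutation p = 0.1).

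**Figure D3:**
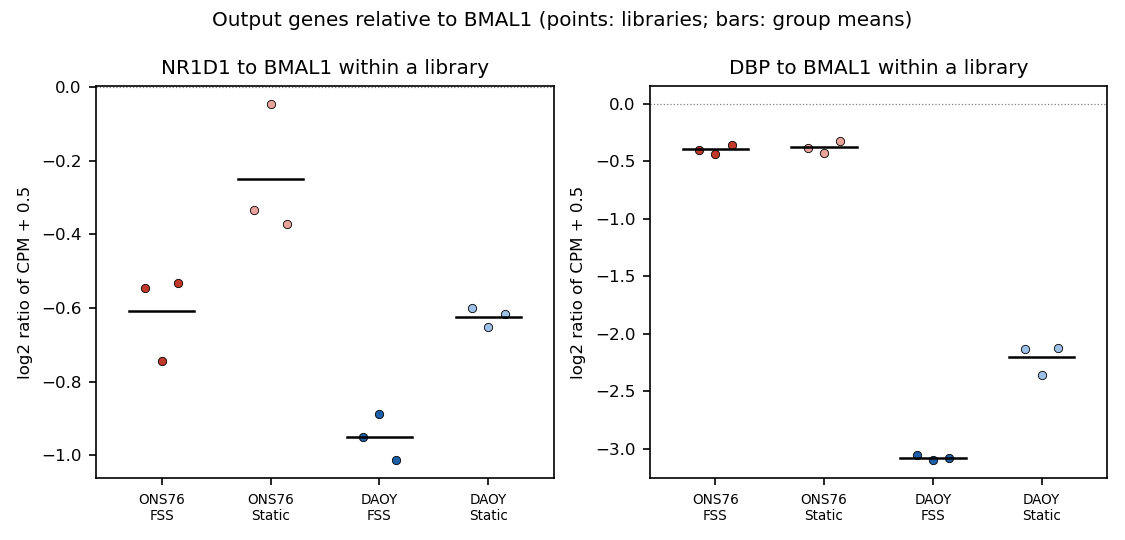
Log2 ratio of NR1D1 to BMAL1 and of DBP to BMAL1 (CPM + 0.5) in each of the 12 libraries, with points for libraries and bars for group means. The NR1D1 ratio is lower under FSS than static in both lines, by 0.36 and 0.33 in size, while the DBP ratio overlaps in ONS76 and differs by -0.88 in DAOY. BMAL1, the divisor of both ratios, is higher under FSS in both lines, and NR1D1 itself is not lower under FSS in DAOY.

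Genes that modify clock proteins and outputs of the clock also changed in both directions. Of 16 modifiers, 14 were tested, and 4 rose and 4 fell in ONS76, against 5 and 5 in DAOY, where 28.0% and 39.7% of all tested genes passed. Without static ONS76 libraries 1 and 2, the ONS76 calls of CSNK1D (0.20), HDAC3 (-0.18), DDB1 (-0.14), NONO (-0.12) and SFPQ (-0.12), the last 4 being all that fell, were lost at adjusted p 0.0561 to 0.219 (edgeR). CSNK1D, the kinase that marks PER proteins for decay, rose by 0.23 (SE 0.05) in ONS76 and 0.55 (SE 0.06) in DAOY. HDAC3, the deacetylase recruited by REV-ERB proteins, was at -0.23 (SE 0.06) in ONS76 and -0.69 (SE 0.07) in DAOY, and DDB1, a ubiquitin ligase subunit, at -0.10 and -0.36. SIRT1, a deacetylase tied to the clock, rose in DAOY (0.29, SE 0.04) and was at 0.08 in ONS76 (adjusted p = 0.154, edgeR). Of 9 output genes, 2 rose and 3 fell in ONS76, and 5 rose and 1 fell in DAOY, beside the same shares of all tested genes. Without static ONS76 libraries 1 and 2, fewer output genes fell in ONS76, and NAMPT lost its call there (log2 fold change -0.15). NAMPT, which makes NAD from nicotinamide, was lower under FSS in ONS76 (-0.14, SE 0.04) and higher in DAOY (0.73, SE 0.04), and KLF10 did likewise (-0.31 and 0.39, SE 0.05 each). PPARA rose in ONS76 (0.52, SE 0.05) and was at 0.11 in DAOY (adjusted p = 0.0584, edgeR). These 3 responses differed between the lines by the test of the difference (NAMPT -0.87, KLF10 -0.69, PPARA 0.41).

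Without shear, the lines already differed in their clock genes. Static ONS76 was higher than static DAOY in 2 of the 10 (PER2 and DBP) and lower in 6 (PER1, PER3, CRY1, NR1D1, NR1D2 and CLOCK). Over all tested genes 37.9% were higher and 43.2% lower, 81.0% in all, so 8 of 10 lies close to that share. The libraries of those 8 genes did not overlap between the static lines, nor did those of 81.8% of all tested genes (38.4% higher and 43.4% lower). PER2 was higher in static ONS76 by 1.10 on the log2 scale (SE 0.10, 2.15-fold) and DBP by 0.85 (SE 0.09). PER3 was lower by 1.48 (log2 difference -1.48, SE 0.19), NR1D1 by a log2 difference of -0.66 (SE 0.08), CRY1 by -0.61 (SE 0.06), PER1 by -0.36 (SE 0.08), CLOCK by -0.33 (SE 0.11) and NR1D2 by -0.28 (SE 0.04). CLOCK lost its call without DAOY static library 2 (-0.19, adjusted p = 0.132, edgeR). CRY2 (-0.21, SE 0.12) and BHLHE40 (-0.01, SE 0.06) were not called, though CRY2 was without DAOY static library 3 (-0.31, adjusted p = 0.0259, edgeR). The median of all tested genes was itself -0.10 here and moved to -0.32 with upper-quartile scaling, where CRY2 and BHLHE40 were called lower at -0.43 and -0.23 and the 6 genes became 8. With limma on log2 TPM it moved to -0.33 (pseudocount 1) and -0.50 (pseudocount 0.1), with 5077 and 5057 of all tested genes higher and 11005 and 11063 lower, against 7433 and 8475 in the edgeR test. Of the 10 genes, 2 were higher and 8 lower there, and every size but that of PER3 moved by more than 1.5 times. At the pseudocount that moved each most, PER2 was at 0.58, DBP at 0.36, NR1D1 at -1.07, CRY1 at -1.03, PER1 at -0.76, CLOCK at -0.70, NR1D2 at -0.69, CRY2 at -0.61 and BHLHE40 at -0.42.

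**Figure D4:**
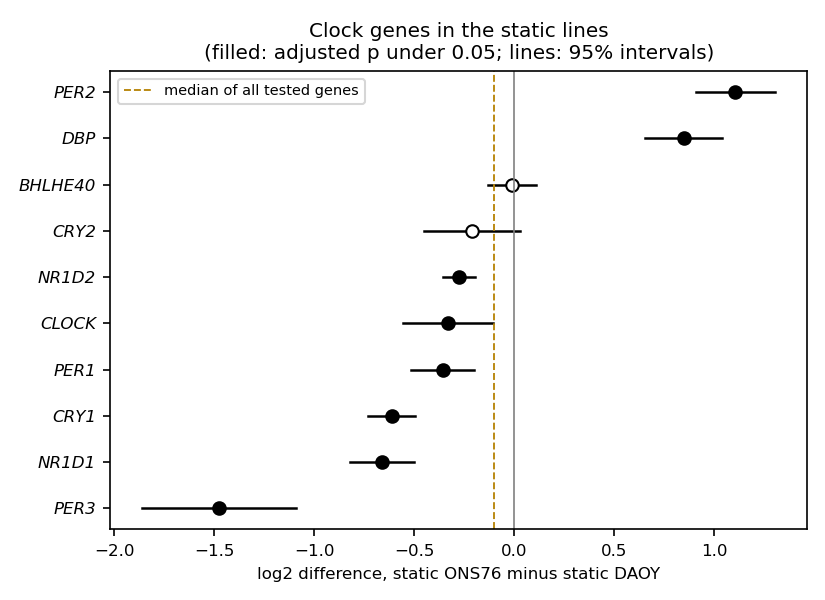
Log2 difference, static ONS76 minus static DAOY, for the 10 clock genes; points are edgeR estimates, lines are 95% intervals, filled points have an adjusted p under 0.05, and the dashed line is the median of all tested genes. PER2 and DBP lie right of 0, at 1.10 and 0.85, and PER3 lies farthest left, at -1.48.

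Per gene length, the order of levels was much alike in the 4 groups. NR1D2 and BHLHE40 were highest everywhere, at 44.4 ± 0.822 and 41.2 ± 2.50 TPM in ONS76 under FSS, 49.8 ± 2.23 and 48.1 ± 2.50 TPM in static ONS76, 66.5 ± 2.59 and 68.7 ± 1.58 TPM in DAOY under FSS, and 80.4 ± 2.81 and 64.5 ± 5.92 TPM in static DAOY (mean ± SD, n = 3). These 2 genes overlapped in static ONS76 and in DAOY under FSS. CRY1, NR1D1 and PER1 followed in that order in all groups, at 24.2, 13.7 and 12.5 TPM in ONS76 under FSS and 48.6, 34.0 and 19.3 TPM in DAOY under FSS, and neighbours in that run overlapped for NR1D1 and PER1 in ONS76 under FSS. PER3 was lowest in every group, with means from 0.67 TPM in static ONS76 to 2.51 TPM in static DAOY. PER2 and DBP lay above CRY2 in ONS76 and below it in DAOY. Further down, the libraries of PER2 and DBP overlapped in ONS76 under FSS and in static DAOY, and PER2 overlapped CLOCK, and CLOCK DBP, in DAOY under FSS. Within groups the coefficient of variation of the 10 genes ran from 0.926% (NR1D2 in ONS76 under FSS) to 22.6% (PER3 in static ONS76), with a median of 6.6%.

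For each clock gene, the gene with the closest profile over the 12 libraries was found among 10455 genes or more with a mean of at least 5 CPM, by the root mean square distance of log2 CPM after centring each gene. The closest match of all was SUZ12 for NR1D2, at 0.039 log2 units, and then ANKRD13C for CRY1 at 0.058. DBP was nearest to ANKRD9 (0.0715), NR1D1 to KLF7 (0.0756), BHLHE40 to SLIRP (0.0761), PER1 to ANKS1A (0.0767) and CLOCK to KLHL8 (0.0926). PER2 was nearest to ZNRF3 (0.105), CRY2 to GTF3C3 (0.115) and PER3 to CNTROB, at the largest distance of 0.223. No clock gene had another of the 10 as its nearest. That outcome was likely beforehand, as clock genes were few among those searched and PER3 lay below the limit of 5 CPM. It therefore does not tell whether the clock genes move together. Among themselves PER1 and CLOCK were closest, at 0.149, followed by NR1D2 and BHLHE40 at 0.162 and PER2 and DBP at 0.166. A gene that varies little lies near any other such gene, so each gene's own root mean square about its mean matters. It was 0.206 for PER1, 0.198 for CLOCK, 0.168 for NR1D2, 0.152 for BHLHE40, 0.657 for PER2 and 0.586 for DBP. The distance of NR1D2 and BHLHE40 was thus about as large as their own variation and shows no shared profile, whereas that of PER2 and DBP was far smaller than theirs. All these profiles share the 12 libraries.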

How the data were processed

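Per the labels' protocols, RNA (integrity number above 9.8) gave directional polyA libraries that were read as 100 bp pairs. HISAT2 2.2.1, featureCounts and the build GRCh38 are named in the submitters' processing notes. The authors deposited raw counts per gene and TPM values for the same libraries. The counting annotation and its strand and overlap settings: not given in the sources used here.

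Those counts went into edgeR 4.0.16 (R 4.3.3): filterByExpr with the design (19631 of 63241 genes, 99.96% of counts), TMM scaling, and a quasi-likelihood fit with 1 mean per group over 12 libraries. Tests were two-sided; p-values were adjusted by Benjamini-Hochberg over every tested gene and called under 0.05. The standard error is the log2 fold change over the root of F. Replicates differed by 3.74 to 9.25 times counting noise (chi-square per degree of freedom), so none was counted as a repeat. Both ends lay in static ONS76, where libraries 1 and 2 were the closest pair (3.74) and libraries 1 and 3 the farthest (9.25). Libraries 1 and 2 are those with the heart myosins, and whether their cultures were independent was not tested. Alternatives were DESeq2 1.42.0, limma 3.58.1 on log2 TPM, other scalings, filters and left-out libraries. Coordinates and overlaps are from GENCODE 29 on GRCh38, and may differ from the counting annotation.

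The 10 genes, the other lists and the alternatives were chosen with earlier results of these data known. All 10 genes are named. From the other lists the genes with the smallest p in either line are named (8 core clock genes, 4 of each other list), and BMAL1 always. The values of the other lists and of the ratios without static ONS76 libraries 1 and 2 were added after seeing the data. Some genes of these lists are not reported here.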

Additional observations from a re-analysis of the deposited data

Results flagged for a closer look

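The responses of 5 of the 10 clock genes to FSS differed between the lines by the edgeR test of the difference, ONS76 minus DAOY on the log2 scale, at an adjusted p under 0.05. PER3 differed by 1.23, with an ONS76 response of 0.10 and a DAOY response of -1.14. DBP differed by 0.67, with responses of 0.25 in ONS76 and -0.42 in DAOY, and it was the one of the 10 genes called in opposite directions. Its fall in DAOY held in every alternative run, but its rise in ONS76 lost its call in several. CRY2 differed by 0.50 (0.12 in ONS76 and -0.38 in DAOY) and PER2 by 0.44 (0.27 in ONS76 and -0.17 in DAOY). BHLHE40 differed by -0.34, with responses of -0.25 in ONS76 and 0.09 in DAOY. The calls for PER3, DBP and BHLHE40 held in every alternative that kept the gene, whereas those for CRY2 and PER2 were lost in several.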

How the results depend on the processing

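Over the 10 genes, 2 fell in ONS76 in every alternative run, 3 to 4 fell in DAOY, and 2 were higher in static ONS76 than in static DAOY. The count that rose in ONS76 was 1 with limma on log2 TPM at either pseudocount (1 or 0.1) and 0 without static ONS76 libraries 1 and 2; it ran from 1 to 3 when each library was left out in turn. The count that rose in DAOY was 2 with upper-quartile scaling, 2 with a stricter filter (5 CPM in 3 libraries) and 1 with each line fitted alone, and ran from 0 to 2 with single libraries left out. Genes more positive in ONS76 numbered 2 with limma at pseudocount 0.1, where 2077 of 19631 tested genes were more positive, and 2 to 4 with single libraries left out. Without static ONS76 libraries 1 and 2, the differences of PER2 (0.40) and CRY2 (0.46) lost their calls. Genes more negative numbered 2 with the stricter filter, where 1843 of 11619 tested genes were more negative, and 1 with single libraries left out. Genes lower in static ONS76 numbered 5 to 7 with single libraries left out. The counts over all tested genes moved too. With limma on log2 TPM, 2689 (pseudocount 1) and 2771 (pseudocount 0.1) of 19631 rose in ONS76. In DAOY, 4307 of 19631 rose with upper-quartile scaling, 3294 of 11619 with the stricter filter and 3981 of 18598 with the line fitted alone.

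Some small, uncalled values changed sign. The CRY1 difference of responses was 0.00833 with DESeq2, 0.00573 with RLE scaling, 0.0246 and 0.0244 with limma, and -0.047 to 0.0531 with single libraries left out. The static BHLHE40 difference was 0.077 without static ONS76 libraries 1 and 2, and -0.0868 to 0.0571 with single libraries left out. With single libraries left out, so did PER3 in ONS76 (-0.0587 to 0.273), the CLOCK difference of responses (-0.0348 to 0.211) and the ratio of DBP to BMAL1 in ONS76 (-0.0439 to 0.00997). The cause was not tested. Fitting each line alone gives no value across lines, and PER3 did not pass the stricter filter.

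Libraries with the same replicate number did not deviate together over 11628 genes (correlations -0.05 to 0.05, against -0.08 to 0.07 for different numbers). No pairing by number was thus seen over these genes, but a pairing that touches only some genes would not show in this check. With a replicate block, 3 genes rose and 2 fell in ONS76 and 0 rose and 4 fell in DAOY, the same counts as without it. Depth limits PER3 most, at 45 to 87 counts per ONS76 library.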

Other observations

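Genes outside the clock that answer to signals known to reset or disturb it also moved, and each value here is an edgeR log2 fold change, FSS minus Static. Of 8 glucocorticoid-responsive genes, 7 were tested; 1 rose and 4 fell in ONS76, and 4 rose and 1 fell in DAOY. TSC22D3 (GILZ) rose in both lines, by 0.70 in each (SE 0.06 in ONS76 and 0.05 in DAOY). SGK1, a kinase gene, was at -0.46 (SE 0.05) in ONS76 and 1.32 (SE 0.06) in DAOY, and CEBPD, a transcription factor gene, at -0.55 (SE 0.09) and 0.92 (SE 0.10). MT2A, a metallothionein, fell in ONS76 (-0.64, SE 0.06) and was at -0.07 in DAOY (adjusted p = 0.403, edgeR).

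Of 8 targets of cyclic AMP and CREB, 6 were tested; 2 rose and 1 fell in ONS76, and all 6 tested rose in DAOY. NR4A2, an orphan nuclear receptor gene, rose in both lines, by 0.83 (SE 0.07) in ONS76 and 1.07 (SE 0.09) in DAOY, and PDE4B by 0.13 and 0.21 (SE 0.05 each). NR4A1 and SIK1 rose in DAOY (0.36 and 0.25) and did not pass in ONS76 (0.24 and -0.04). Of 13 targets of hypoxia-inducible factor, 3 rose and 4 fell in ONS76, and 5 rose and 2 fell in DAOY. PDK1, which restrains pyruvate oxidation, was lower under FSS at -1.16 (SE 0.09) in ONS76 and -1.49 (SE 0.11) in DAOY, while VEGFA rose by 0.48 and 0.53 (SE 0.04 each), P4HA1 by 0.44 and 0.50 (SE 0.05 each) and NDRG1 by 0.22 and 0.87. The share of all tested genes called was 28.0% in ONS76 and 39.7% in DAOY. Without static ONS76 libraries 1 and 2, fewer glucocorticoid-responsive genes fell in ONS76, and fewer hypoxia-inducible factor targets rose or fell there. PDE4B (0.15), CREM (-0.26) and NDRG1 (0.13) lost their ONS76 calls in that run.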
